A study of Mus musculus with 18 samples.

Results

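The genes Spp1, Gpnmb, Trem2, Lpl, Fabp5, Cd36, Cd63, Apoe and Lgals3, used together as the signature of lipid-associated macrophages, were followed through the lungs, spleens and implanted scaffolds of mice with and without a mammary tumour. They were chosen by name, with earlier results of these data known, as 9 of the 22049 genes of the count tables. Each of the 9 genes had UMIs in 18 of 18 libraries, and 9 of 9 passed the filter on low counts that left 11158 genes for testing. In these tissues the 9 genes had their highest levels in the scaffold, where most of their transcripts lay in 2 clusters of cells. In the lung and the spleen much of what was counted for them sat on cell barcodes that another library of the same day also held, least so for Lgals3.

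Cells were measured by Drop-seq, in which a cell and a barcoded bead share a droplet, and reads that share a molecular tag (UMI, unique molecular identifier) are counted as a single transcript of that cell. Tumour-bearing mice were female BALB/cJ mice given 2000000 4T1-tdTomato-luc2 cells (4T1 mouse mammary carcinoma carrying a red fluorescent protein and a luciferase) in the fourth mammary fat pad of the right side at 7 to 8 weeks of age. Healthy mice were female BALB/cJ mice without tumour cells, and mice of both kinds carried the biomaterial scaffold. Lung, scaffold and spleen each gave 1 library per status at day 7 (mice aged 9 weeks), day 14 (10 weeks) and day 21 (11 weeks), hence 3 libraries per tissue and status. What the scaffold was made of, when it was implanted and how many animals entered a library could not be read from the labels, so p-values measure only the spread between libraries. A single day within a tissue and status has no replicate.

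Lipid-associated macrophages are macrophages that take up and break down lipid-rich debris, described in fat tissue, atherosclerotic plaques, fatty liver and the brain and around implanted materials. TREM2, a surface receptor that binds lipids and lipoproteins and signals through the adaptor TYROBP (DAP12), is needed for the full programme in several of these settings. The programme covers secreted proteins, lipid receptors, enzymes and carriers for fatty acids, and lysosomal membrane proteins. Several of its genes are also used elsewhere: Lpl, Fabp5 and Cd36 in fat cells, Cd36 in capillary endothelium, Lpl in alveolar macrophages, and Cd63 and Lgals3 in granulocyte precursors.

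In the RefSeq annotation of GRCm38.p6, Fabp5 lies at chr3:10012585-10016610, Cd36 at chr5:17781690-17888959, Spp1 at chr5:104435111-104441053 and Gpnmb at chr6:49036518-49058182. Apoe lies at chr7:19696244-19701310, Lpl at chr8:68880555-68906932, Cd63 at chr10:128896231-128912822, Lgals3 at chr14:47373860-47386167 and Trem2 at chr17:48346401-48352276. Spp1 and Cd36 share a chromosome at a distance, and the other genes lie on separate chromosomes. The 250 bases upstream of the transcription start were taken from the RefSeq promoters of GRCm38.p6, in which 7 of 9 genes had an entry, with 10 starts in all. Those of 4 genes are shown, because the genes moved together across tissues and parted within the scaffold: Spp1 and Gpnmb were higher in one of the 2 clusters described below, Apoe in the other, and both had Trem2. For each gene 1 start is shown, and Spp1 and Apoe have further starts that were searched but are not printed. Each sequence is written 5′ to 3′ on the strand of its gene, and capitals mark a match to one of 4 motifs.
Spp1, chr5:104434861-104435110, plus strand: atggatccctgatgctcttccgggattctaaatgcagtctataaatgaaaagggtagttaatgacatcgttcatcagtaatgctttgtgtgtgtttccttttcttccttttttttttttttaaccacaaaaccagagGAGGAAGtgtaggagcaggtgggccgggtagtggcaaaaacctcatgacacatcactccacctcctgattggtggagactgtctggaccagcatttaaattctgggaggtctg
Gpnmb, chr6:49036268-49036517, plus strand: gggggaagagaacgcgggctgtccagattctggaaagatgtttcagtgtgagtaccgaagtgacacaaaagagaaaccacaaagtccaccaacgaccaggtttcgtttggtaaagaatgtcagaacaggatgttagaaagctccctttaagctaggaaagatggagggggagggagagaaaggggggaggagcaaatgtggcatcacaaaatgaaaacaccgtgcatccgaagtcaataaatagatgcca
Trem2, chr17:48346151-48346400, plus strand: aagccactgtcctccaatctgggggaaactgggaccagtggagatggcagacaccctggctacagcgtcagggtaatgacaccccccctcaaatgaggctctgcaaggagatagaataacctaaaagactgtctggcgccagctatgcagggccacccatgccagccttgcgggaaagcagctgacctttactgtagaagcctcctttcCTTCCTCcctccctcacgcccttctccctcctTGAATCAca
Apoe, chr7:19699189-19699438, minus strand: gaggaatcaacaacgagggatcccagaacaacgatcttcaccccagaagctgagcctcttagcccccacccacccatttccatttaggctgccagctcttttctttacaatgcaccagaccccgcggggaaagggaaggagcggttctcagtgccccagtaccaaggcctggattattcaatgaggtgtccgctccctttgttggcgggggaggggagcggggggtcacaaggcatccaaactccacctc
The motifs, searched on both strands, were CACGTG (bound by the MiT/TFE family, lysosomal gene regulators, and by MYC), TCATGTG (the core of the MITF M-box), TGANTCA (AP-1) and GAGGAAG (ETS factors of the PU.1 kind). None of the 4 contains another, and matches may overlap. CACGTG was found at 0 of the 10 starts and in 6.02% of all 32851 promoters of this length, and TCATGTG at 0 starts and in 3.25%. TGANTCA was found at 1 start, that of Trem2 (bases -9 to -3), and in 6.75% of all promoters. GAGGAAG was found at 3 starts, those of Spp1 (bases -113 to -107), Trem2 (-41 to -35) and Cd63 (-60 to -54), and in 10.6% of all promoters. These are matches of letters only.

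After filtering, 24536 of 26397 barcodes were kept, with 292092 to 4291208 UMIs per library and a median of 383 to 1222.5 UMIs per cell. A barcode found in more than 1 library of the same day was called shared. Shared barcodes made up 2.10% of the kept cells of the healthy scaffold of day 14 and 94.9% of those of the healthy spleen of day 21, which kept 26 cells without them. The healthy lung of day 21 had 77.2% shared barcodes and kept 235 cells. The tests of the 9 genes between tissues and between statuses are therefore given with all cells and with shared barcodes left out, and other values name the cells they rest on. The tissue levels, the pathway lists and the correlations are given with all cells unless stated.

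The signature genes were concentrated on these barcodes. A cluster of 2847 cells led by Mmp12, Rnf128, Prdx1 and Pdpn, made without using the 9 genes, held 385 cells of the lung libraries and 408 of the spleen libraries. Of the 385 lung cells, 374 (97.1%) had a barcode that a scaffold library of the same day also held, with a median of 411 UMIs in the lung against 7363 in the scaffold. The scaffold library had more UMIs for 371 of these 374 barcodes, by a median ratio of 13.9. Of the 408 spleen cells, 390 (95.6%) were also in a scaffold library, with a median of 385 UMIs against 9086 and a median ratio of 18.9. In the lung, shared barcodes carried 74.8% of the UMIs of Spp1, 89.4% of those of Gpnmb, 83.2% of those of Trem2 and 56.9% of those of Lpl. In the spleen they carried 94.1%, 97.2%, 92.4% and 93.8%, but 46.5% for Cd63 and 37.2% for Lgals3. In the scaffold the share ran from 28.5% for Apoe to 61.1% for Gpnmb. How a barcode came to be in several libraries was not tested.

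**Figure D1:**
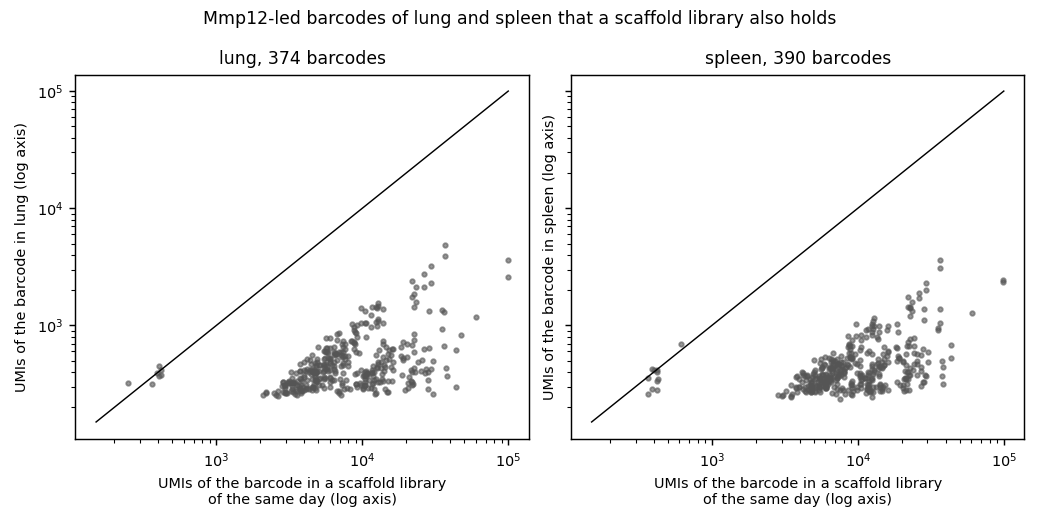
UMIs of each Mmp12-led barcode in the lung (left) or spleen (right) library on the vertical axis against its UMIs in a scaffold library of the same day on the horizontal axis, both logarithmic; each point is 1 barcode and the line marks equal numbers. Nearly all of the 374 lung and 390 spleen barcodes lie below the line, with 371 and 387 higher in the scaffold.

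Levels are given as CPM, the UMIs of a gene scaled to a total of 1000000 UMIs in the kept cells of a library, and because cells were summed, fewer cells of a type and less RNA per cell cannot be told apart. They are compared between libraries and not between genes. For orientation, the summed level of 9 macrophage markers was 3529.5 to 5031 CPM in the 6 scaffold libraries, 338 to 1134 in the lung and 200.1 to 1393 in the spleen, with no marker at 0 in all libraries of a group. The summed level of 7 adipocyte markers was at most 15.5 CPM in the scaffold, with Adipoq, Plin1, Cfd and Pck1 at 0 in its 3 healthy libraries, so that defining markers of fat cells were at or near 0 there.

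All 9 genes were higher in the scaffold than in the lung and the spleen. With all cells, the lowest of the 6 scaffold libraries was above the highest of the 6 lung libraries for 9 of 9 genes, and above the highest spleen library for 9 of 9. Without shared barcodes this held for 9 of 9 against the lung and 8 of 9 against the spleen. The exception was Spp1, at 1059 CPM in the healthy spleen of day 21, a value that rests on 14 UMIs in 26 cells. How many of all genes show such a separation is not given, so these counts describe the 9 genes alone.

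Among the secreted proteins, Spp1 (osteopontin, a matrix protein that binds integrins and CD44) stood in the healthy scaffold at 3012, 3499 and 2119 CPM at days 7, 14 and 21, and in the tumour-bearing scaffold at 3770.0, 2409.9 and 1807. In the lung it stood at 498, 258 and 879 in healthy and 200.4, 40.7 and 166 in tumour-bearing mice. In the spleen it stood at 388, 21.6 and 1065 in healthy and 216.5, 35.0 and 147 in tumour-bearing mice. The scaffold libraries thus lay together, whereas those of the spleen were spread widely, with the healthy library of day 21 far above the rest. Apoe (apolipoprotein E, which carries cholesterol out of macrophages and binds TREM2) stood at 7132, 10996 and 11982.5 in the healthy and 8615, 9320.4 and 14080.5 in the tumour-bearing scaffold. It ranged from 643 to 3804 in the lung and from 335 to 5635 in the spleen. Lgals3 (galectin 3, a sugar-binding protein that marks damaged lysosomes) stood at 2162, 4200.4 and 2429 in the healthy and 2636, 2888 and 2158 in the tumour-bearing scaffold. It ranged from 498 to 1423 in the lung and from 114 to 1934 in the spleen, so that the scaffold was above both, with the day 21 libraries of healthy lung and spleen nearest to it.

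Among the receptors, Trem2 stood at 464, 633 and 446 in the healthy and 518, 416 and 317 in the tumour-bearing scaffold. In the lung it stood at 60.6, 29.6 and 146 in healthy and 13.6, 17.9 and 42.5 in tumour-bearing mice, and with shared barcodes left out no lung library was above 21.8. In the spleen 2 UMIs of Trem2 remained in the 3 healthy libraries once shared barcodes were left out, and 21 in the 3 tumour-bearing ones. With all cells, 8046 of the 8748 UMIs of Trem2 came from the 6 scaffold libraries. Cd36 (a scavenger receptor that takes up oxidised lipoprotein and fatty acids) stood at 938, 766 and 572 in the healthy and 1029, 823 and 531 in the tumour-bearing scaffold, and ranged from 37.4 to 230.4 in the lung and from 18.6 to 202 in the spleen. Gpnmb (a transmembrane glycoprotein induced by lysosomal stress through MITF) varied little there, at 883, 917 and 903 in the healthy and 997, 791 and 905 in the tumour-bearing scaffold. Without shared barcodes the scaffold of day 21 was the lowest for Gpnmb, at 237 in healthy and 313 in tumour-bearing mice, against 439 to 874 at days 7 and 14.

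Among the genes of lipid handling, Lpl (lipoprotein lipase, which frees fatty acids from lipoproteins) stood at 4564, 3682 and 3180.2 in the healthy and 3815, 4215 and 2199 in the tumour-bearing scaffold. Its healthy lung libraries stood at 1074, 777 and 1232, and still at 633, 744 and 1247 without shared barcodes. Fabp5 (a carrier of fatty acids in the cytosol) ranged from 338 to 717 in the scaffold, from 42.5 to 136 in the lung and from 13.3 to 246 in the spleen. Cd63 (a tetraspanin of late endosomes, lysosomes and granules) ranged from 857 to 2217 in the scaffold, from 61.8 to 527 in the lung and from 52.4 to 808 in the spleen. For both genes the highest spleen value was that of the healthy mice at day 21.

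**Figure D2:**
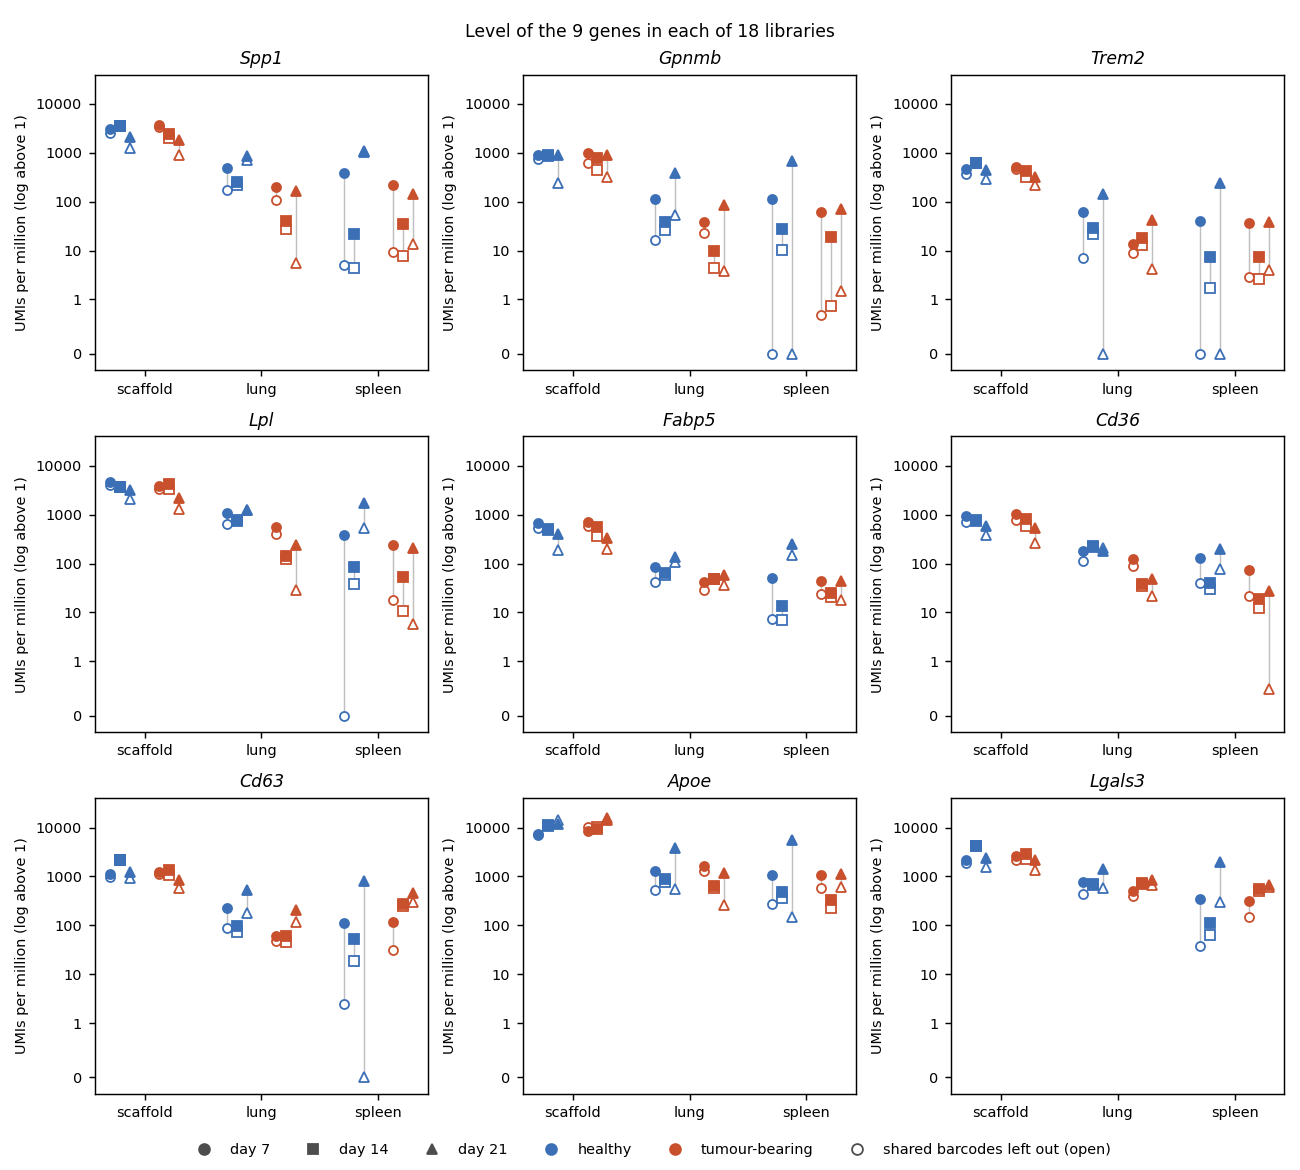
Level of each of the 9 genes in CPM, by tissue, status and day, with all cells and with shared barcodes left out; each point is 1 library, filled for all cells and open without shared barcodes, on an axis that is logarithmic above 1. The filled scaffold points lie above all filled lung and spleen points of the same gene, and many open lung and spleen points of Spp1, Gpnmb and Trem2 lie far below the filled ones.

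The tests of these differences used edgeR's quasi-likelihood method on the summed counts of 18 libraries, with Benjamini-Hochberg adjustment over all genes tested and a call at an adjusted p under 0.05; log2 differences are given with their SE. In healthy mice 6 of 9 genes were called higher in scaffold than in lung, against 2.75% of all genes, and 7 of 9 with shared barcodes left out (4.6% of all genes). Trem2 was 3.14 ± 0.78 higher on the log2 scale with all cells and 5.20 ± 0.52 with shared barcodes left out, Gpnmb 3.05 ± 0.72 and 4.60 ± 0.67, and Apoe 2.63 ± 0.59 and 4.21 ± 0.57. Lpl, at 1.95 ± 0.71 and 1.90 ± 0.81, and Spp1, at 2.81 ± 0.83 and 3.17 ± 1.13, did not pass in either set of cells. In tumour-bearing mice 8 of 9 were called higher in scaffold than in lung (6.77% of all genes), with Lgals3 not called at 1.78 ± 0.64, and 9 of 9 with shared barcodes left out (8.51%). There Spp1 was 5.44 ± 1.22 higher, Gpnmb 5.39 ± 0.65, Trem2 5.12 ± 0.48 and Lpl 3.86 ± 0.87.

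Against the spleen, 9 of 9 genes were called higher in the healthy scaffold (8.95% of all genes), and 9 of 9 with shared barcodes left out (14.9%). In tumour-bearing mice 8 of 9 were called (10.1% of all genes), with Cd63 not called at 2.15 ± 0.73, and 9 of 9 with shared barcodes left out (11.4%). There the log2 difference was 7.74 ± 1.05 for Lpl, 5.64 ± 0.58 for Cd36, 4.48 ± 0.57 for Apoe and 3.98 ± 0.54 for Fabp5, and least for Cd63 at 2.30 ± 0.68 and Lgals3 at 2.11 ± 0.53. Calls made with all cells depended on the days: without the libraries of day 7, or without those of day 14, 0 of 9 genes were called in scaffold against lung in either status or in healthy scaffold against spleen, and without those of day 21, 9 of 9 were called in each. Without the day block, and with all cells, 0 of 9 were called in healthy scaffold against lung, 5 of 9 in tumour-bearing scaffold against lung, 1 of 9, Cd36 at 2.61, in healthy scaffold against spleen, and 7 of 9 in tumour-bearing scaffold against spleen. The log2 difference of Trem2 was then 2.59, 3.73, 2.44 and 3.69 in these 4 comparisons. With shared barcodes and day 21 both left out, 9 of 9 were called in each of the 4 comparisons. Shares of all genes called are not given for these alternative fits, so their counts alone do not set the 9 genes apart.

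Between lung and spleen, calls were made with shared barcodes left out and none with all cells. In the latter, 0 of 9 genes were called by edgeR in healthy mice (0 at an unadjusted p under 0.05; 0.663% of all genes called higher in lung) and 0 of 9 in tumour-bearing mice (0 unadjusted; 3.19%). Without them, 5 of 9 were called higher in healthy lung (5.15% of all genes): Lpl by 4.47 ± 1.11, Lgals3 by 3.17 ± 0.62, Fabp5 by 2.76 ± 0.75, Cd36 by 2.67 ± 0.62, and Trem2, whose healthy spleen count of 2 UMIs gives no usable fold. The healthy spleen held 13 UMIs of Fabp5 in this set, so the size of its difference is uncertain. In tumour-bearing mice 3 of 9 were called higher in lung (7.4%), namely Lpl by 3.88 ± 0.91, Cd36 by 2.34 ± 0.53 and Gpnmb, which had 7 UMIs in the 3 spleen libraries.

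Within the scaffold, 2 clusters held most of the transcripts. Cluster 4, called macrophage-like, had 2031 cells, was led by Ccl8, C1qa, C1qb and C1qc (complement components made by resident macrophages), and was higher in 9 of 9 macrophage markers. The Mmp12-led cluster had 4 of 9 macrophage markers higher and none among its 10 leading genes, so it stays without a cell type name. Mmp12 is a macrophage elastase and Itgax, also among its leading genes, encodes CD11c. Without shared barcodes, the Mmp12-led cluster made up 28.2% ± 7.7 (SD, n = 3 libraries) of cells in healthy scaffolds and 21.7% ± 11.3 in tumour-bearing ones. The macrophage-like cluster made up 22.6% ± 4.9 in healthy scaffolds and 20.7%, 23.0% and 16.2% at days 7, 14 and 21 in tumour-bearing ones.

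The Mmp12-led cluster held the largest mean share of the UMIs of Spp1, Gpnmb, Lpl, Cd36 and Lgals3, and the macrophage-like cluster that of Apoe, in both statuses and both sets of cells. Single tumour-bearing libraries without shared barcodes went the other way. There the macrophage-like cluster held more Spp1 than the Mmp12-led cluster at day 7, and more Gpnmb and Cd36 at day 21. In the healthy scaffold with shared barcodes left out, the Mmp12-led cluster held 63.1% of the UMIs of Spp1, 67.5% of those of Gpnmb, 62.8% of those of Cd36 and 58.2% of those of Lgals3 (means of 3 libraries). With all cells these shares were 66.8%, 72.7%, 64.0% and 62.3%. The macrophage-like cluster held 70.1% of the UMIs of Apoe with shared barcodes left out and 68.2% with all cells. For Trem2 the order depended on the shared barcodes: in the healthy scaffold the Mmp12-led cluster held 40.1% and the macrophage-like cluster 49.2% without them, but 46.1% and 42.7% with all cells. In the tumour-bearing scaffold the order turned in the same way for Trem2, at 33.9% and 54.2% against 48.8% and 39.5%. Fabp5 and Cd63 turned there too. For Fabp5 the Mmp12-led and macrophage-like clusters held 39.2% and 46.4% without shared barcodes, and 55.5% and 33.6% with all cells. For Cd63 they held 37.6% and 44.8%, and with all cells 52.4% and 31.3%.

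**Figure D3:**
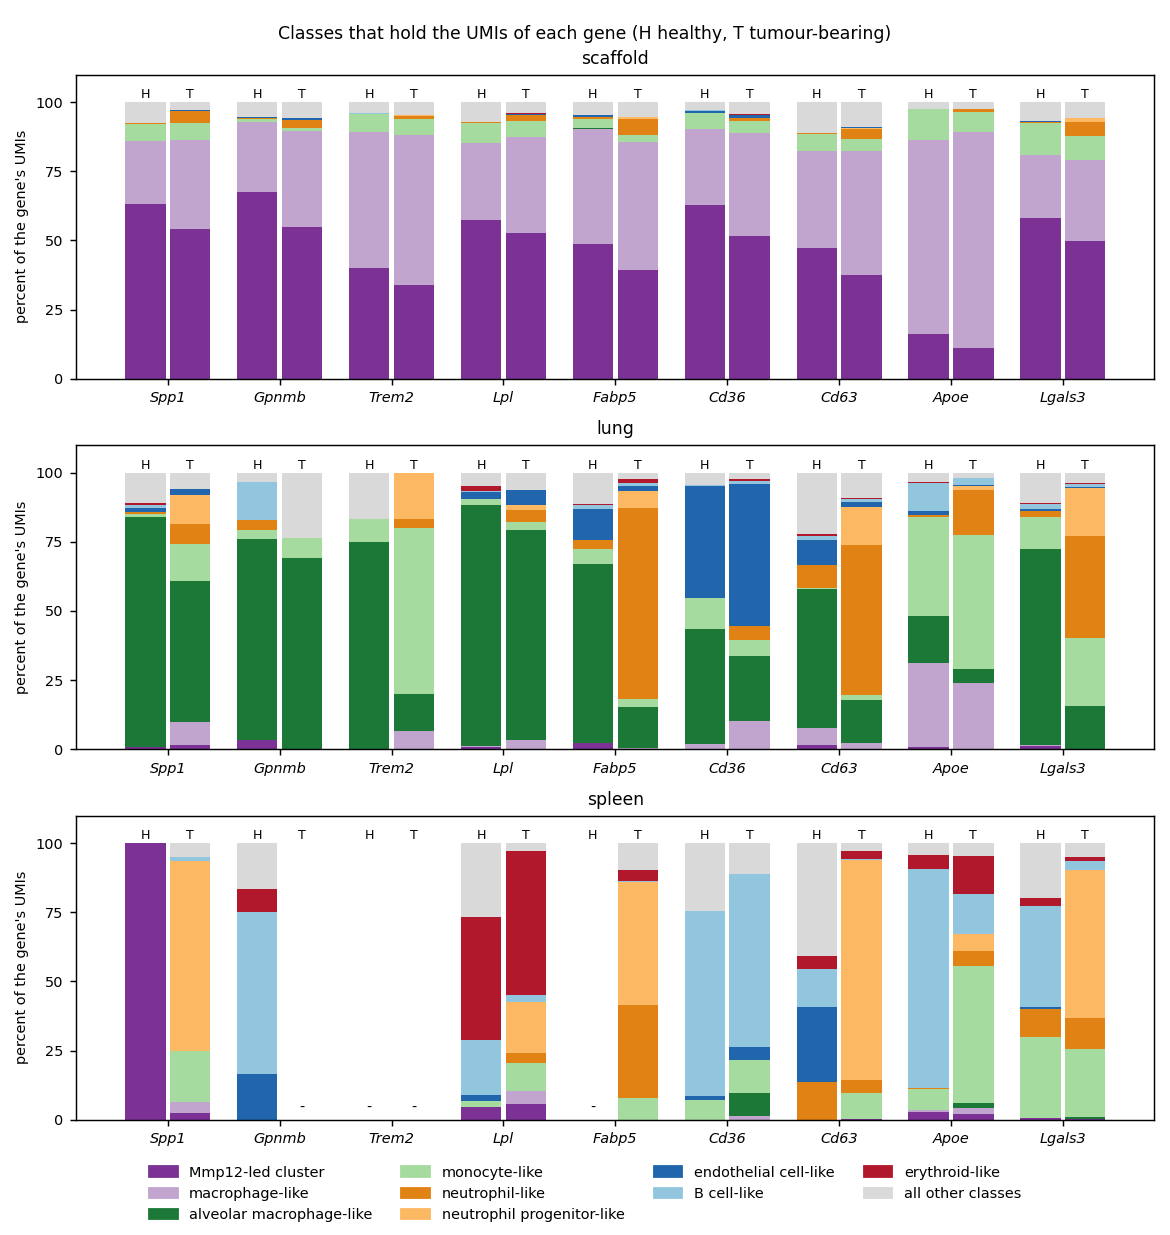
Share of each gene's UMIs held by each class of cells in scaffold, lung and spleen, shared barcodes left out, for healthy (H) and tumour-bearing (T) libraries; bars are means over the libraries with 10 or more UMIs of the gene, and a dash marks none. The Mmp12-led and macrophage-like clusters fill most of each scaffold bar, and alveolar macrophage-like cells most healthy lung bars. For Gpnmb and Trem2 each healthy lung bar rests on 1 library and each tumour-bearing lung bar on 2. Spleen bars rest on few UMIs for Spp1, Gpnmb, Lpl and Cd36, as does the healthy spleen bar of Cd63. Trem2 has no spleen bar.

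Set side by side within each of the 6 scaffold libraries, the 2 clusters split the signature. With all cells, Gpnmb had a mean of 2013 CPM in the Mmp12-led and 638 in the macrophage-like cluster and was higher in the Mmp12-led cluster in 6 of 6 libraries. Spp1 had 5335 against 2317 (6 of 6), Lpl 6581 against 3303 (6 of 6), Lgals3 5098 against 2143 (6 of 6) and Cd36 1465 against 697 (6 of 6). Apoe went the other way, with 5653 against 27617, and was lower in the Mmp12-led cluster in 6 of 6 libraries. Trem2 stood at 650 and 690, higher in the Mmp12-led cluster in 3 of 6 libraries, while Fabp5 was higher there in 5 of 6 and Cd63 in 6 of 6. Thus the lipase, the scavenger receptor and the secreted Spp1 and Lgals3 went with the Mmp12-led cells, the apolipoprotein with the complement-rich cells, and the receptor Trem2 with both. The order was kept without shared barcodes for Gpnmb (1199 against 485, 6 of 6), Lpl (6007 against 3036, 6 of 6) and Apoe (5469 against 30430). Spp1 was then higher in 5 of 6 libraries, and Trem2, at 525 against 643, in 0 of 6. These are descriptions of clusters and were not tested.

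**Figure D4:**
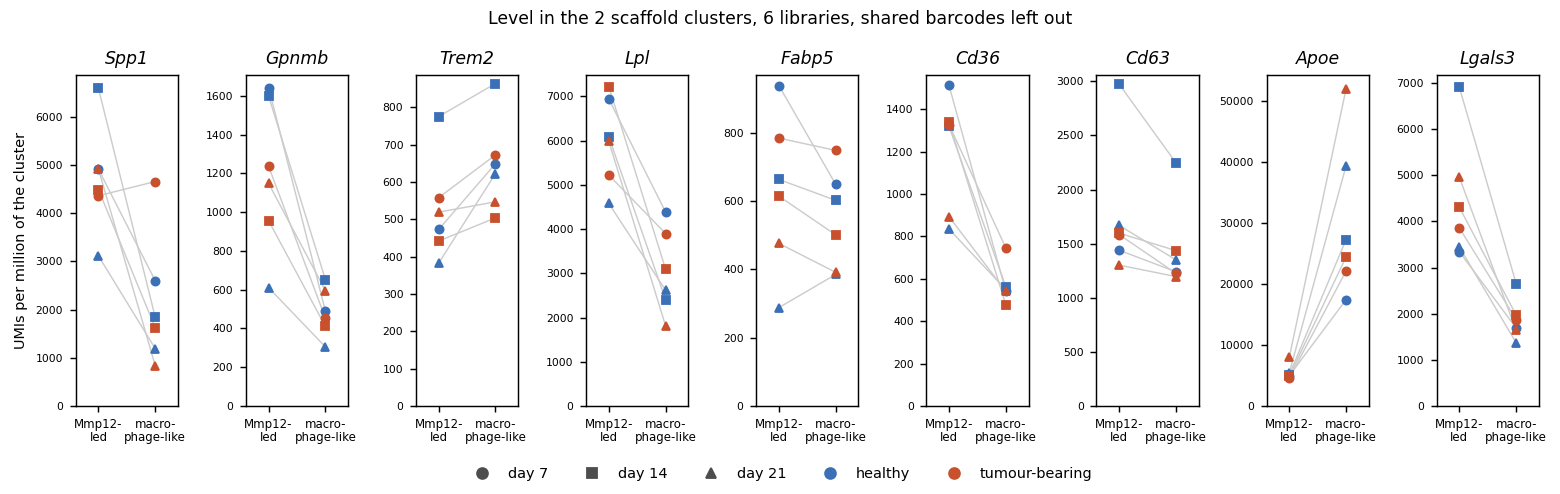
Level of each gene in CPM in the Mmp12-led and macrophage-like clusters, shared barcodes left out; each point is 1 of the 6 scaffold libraries and lines join the clusters of a library. Gpnmb, Lpl, Lgals3, Cd36 and Cd63 are higher in the Mmp12-led cluster in 6 of 6 libraries, Spp1 and Fabp5 in 5 of 6, and Apoe and Trem2 in 0 of 6.

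Other scaffold cells carried parts of the signature, described here with shared barcodes left out. Monocyte-like cells, pooled over libraries, had 7217 CPM of Apoe, and were above the Mmp12-led cluster for Apoe in each of the 6 libraries, from 5012 against 4948 in the healthy scaffold of day 7 to 9255 against 5427 in that of day 21. They had 1001 CPM of Spp1 and 161 of Trem2, but 47.1 of Gpnmb. The unnamed cluster 15, led by the cell division genes Cenpf, Top2a and Mki67, had 529.6 and 529.4 CPM of Gpnmb in the healthy and tumour-bearing scaffold of day 7, against 491 and 453 in macrophage-like cells. In the healthy scaffold of day 14 it had 580 against 653. Fibroblast-like cells varied between libraries for Spp1, at 2387 CPM in the healthy scaffold of day 14, 752 in that of day 21 and 29.4 in the tumour-bearing scaffold of day 21. In the same 3 libraries they had 1543, 898 and 824 CPM of Cd63. Neutrophil-like cells, pooled, had 298 CPM of Spp1 and 18.5 of Trem2, and T cell-like cells had 74.3 and 20.3.

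How many of the 9 genes a cell showed at once was counted after every cell was thinned to 400 UMIs, which leaves out shallower cells. The healthy scaffold had 3 or more of the genes in 46.4%, 56.6% and 27.6% of cells at days 7, 14 and 21. The tumour-bearing scaffold had them in 47.5%, 42.4% and 22.9%. Without shared barcodes the shares were 43.5%, 56.3% and 25.8% in the healthy scaffold, with exact 95% binomial intervals, which cover counting error only, of 39.4 to 47.7, 53.6 to 58.9 and 22.9 to 28.9. In the tumour-bearing scaffold they were 46.3%, 38.7% and 16.9%, with intervals of 43.3 to 49.3, 34.9 to 42.5 and 14.8 to 19.1. The day 21 libraries were the lowest in both statuses, and the statuses overlapped. With all cells the group values were 43.5% ± 14.7 in healthy and 37.6% ± 13.0 in tumour-bearing mice (exact 2-sided permutation test, p = 0.6; with 3 libraries against 3 the smallest possible p is 0.1). Without thinning they were 58.5% ± 16.1 and 55.8% ± 12.2, and with shared barcodes left out 41.9% ± 15.3 and 33.9% ± 15.2 (exact permutation p = 0.6). A count of 5 or more genes was seen in 18.1% ± 6.6 of cells in healthy and 15.1% ± 6.0 in tumour-bearing scaffolds, with all cells used.

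In the lung 3 or more genes were seen in 11.7% ± 7.2 of healthy and 3.10% ± 2.09 of tumour-bearing cells (exact permutation p = 0.2), and with shared barcodes left out in 4.87% ± 2.68 and 0.985% ± 0.779 (p = 0.1 by the exact permutation test, the smallest it can give). Without shared barcodes the healthy libraries had 3.64%, 3.03% and 7.94% and the tumour-bearing ones 1.53%, 1.34% and 0.0920%, so that the groups did not overlap. With all cells, 93 cells of the 3 healthy and 88 of the 3 tumour-bearing lung libraries had 5 or more of the genes. With shared barcodes left out these counts were 1 and 0. In the spleen the share was 12.8% ± 14.4 in healthy and 4.65% ± 2.64 in tumour-bearing mice with all cells (exact permutation p = 0.5). Without shared barcodes 2 cells of the healthy and 6 of the tumour-bearing spleen had 3 or more. None of 1307 healthy and none of 4161 tumour-bearing spleen cells had 5 or more, which allows shares of up to 0.230% and 0.0721%.

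By class, with shared barcodes left out, 3 or more genes were seen in 75.4% ± 9.4 of Mmp12-led scaffold cells and 5 or more in 36.6% ± 7.5 (n = 6 libraries). In macrophage-like scaffold cells the shares were 59.2% ± 9.4 and 19.4% ± 5.7. In the dividing cells of cluster 15 they were 53.0% ± 12.9 and 27.1% ± 18.3 (3 libraries, 110 cells), and in monocyte-like scaffold cells 24.7% ± 7.2 and 2.44% ± 1.93. Alveolar macrophage-like cells of the lung had 3 or more in 12.7% ± 3.5 and 5 or more in none of 393 cells, which allows a share of up to 0.763%. T cell-like cells, which should lack these genes, gave the background: 3 or more in 0.813% ± 1.41 of scaffold cells, with Apoe in 15.4% and Spp1 in 0.813%. Median depths before thinning were 1483 UMIs in Mmp12-led, 1892 in macrophage-like and 848 in T cell-like scaffold cells.

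**Figure D5:**
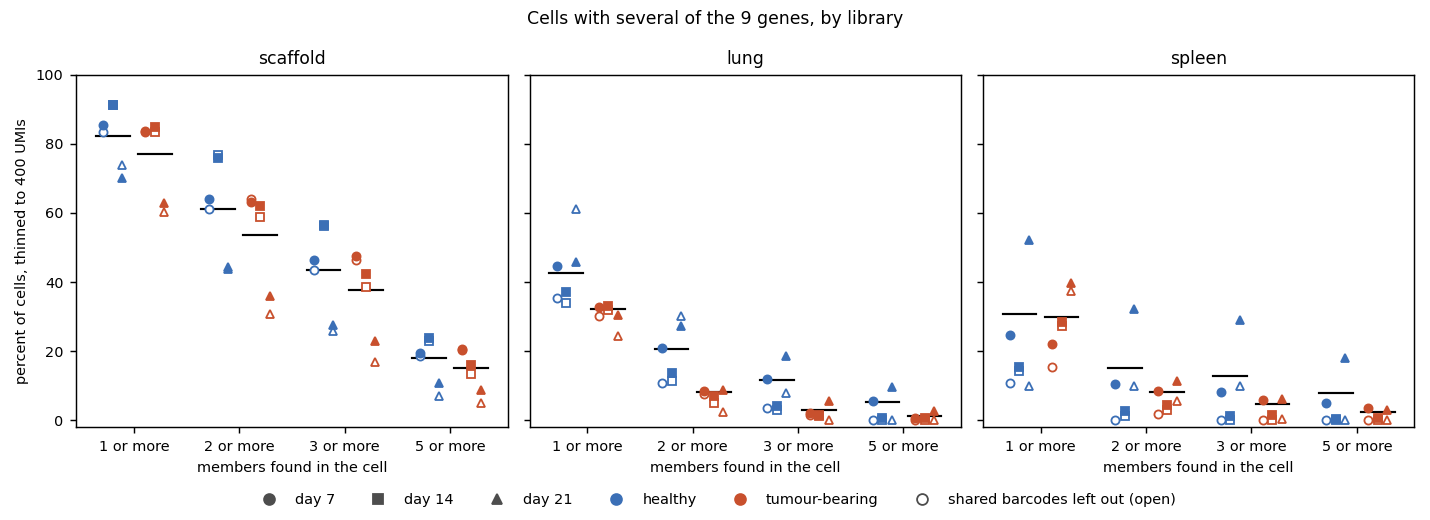
Percent of cells with at least 1, 2, 3 or 5 of the 9 genes after thinning to 400 UMIs, by tissue, status and day; each point is 1 library, open without shared barcodes, and bars are means of 3 libraries with all cells. With all cells, 3 or more genes were seen in 22.9% to 56.6% of scaffold cells, and day 21 was lowest within the scaffold. This was above every lung library but not above every spleen library.

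Over the whole scaffold, pairs of genes were seen in the same cell more often than independent detection gives, and within the clusters the ratio was nearer 1. In all scaffold cells with shared barcodes left out, the observed share of cells with both genes was a median of 1.80 times the product of the single shares over 36 pairs, and above 1 in all 6 libraries for 34 pairs. Gpnmb with Fabp5 had the highest ratio, 3.27 ± 1.17, and Apoe with Lgals3 the lowest, 1.16 ± 0.15. Within the Mmp12-led cluster the median ratio was 1.15, with 16 pairs above 1 in all 6 libraries. There Gpnmb met Fabp5 at 1.94 ± 0.63 times and Cd36 at 1.47 ± 0.29 times the independent share, while Lpl met Apoe at 0.95 ± 0.03, below 1 in 6 of 6 libraries. Within the macrophage-like cluster the median was 1.26, and Gpnmb met Fabp5 at 2.08 ± 0.60 and Spp1 at 1.94 ± 0.40 times. So Gpnmb with Fabp5 had the highest ratio in each of these sets of cells. The ratio cannot exceed 1 divided by the larger single share, so genes found in few cells can reach higher values. In macrophage-like cells Gpnmb was found in 10.4% and Fabp5 in 14.8%, but Apoe in 97.1%. The order of the pairs and the lower ratios within clusters therefore cannot be told apart from how common each gene was. These ratios are descriptions, with no test.

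In the lung, Spp1, Gpnmb, Lpl and Cd36 fell in tumour-bearing mice. Lpl stood at 1074, 777 and 1232 CPM in healthy and 556, 142 and 245 in tumour-bearing mice at days 7, 14 and 21. Cd36 stood at 179.8, 230.4 and 182 against 124, 37.4 and 48.1. Gpnmb stood at 112, 39.1 and 391 against 39.1, 9.76 and 84.2. The tumour-bearing library was the lower one on 3 of 3 days for Spp1, Gpnmb, Trem2, Lpl, Fabp5, Cd36 and Cd63, and the 2 groups did not overlap for Spp1, Lpl, Fabp5 and Cd36. How many of all genes also show this is not given, here or without shared barcodes. With all cells 4 of 9 genes were called lower and none higher, against 2.91% of all genes called lower. The log2 difference was -1.86 ± 0.50 for Spp1 (edgeR adjusted p = 0.037), -1.66 ± 0.43 for Gpnmb (0.031), -1.65 ± 0.44 for Lpl (0.037) and -1.42 ± 0.41 for Cd36 (0.045). Trem2, at -1.31 ± 0.45 (edgeR adjusted p = 0.080), did not pass, nor did Lgals3 at -0.18 ± 0.52 and Apoe at -0.34 ± 0.45. The median of all genes was -0.22 in this comparison. The 4 calls were lost without day 14, without day 21 and without the day block, and 1 was left without day 7. The share of all genes called in these fits is not given.

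With shared barcodes left out, 1 of 9 was called lower in the lung (2.92% of all genes): Cd36, at 111, 216 and 211 CPM in healthy and 88.3, 34.3 and 21.4 in tumour-bearing mice, by -1.60 ± 0.48 (edgeR adjusted p = 0.040). Spp1 stood at 174, 221 and 711 against 107, 27.5 and 5.56, and Lpl at 633, 744 and 1247 against 396, 124 and 29.2. Neither group pair overlapped, but the log2 differences of -2.90 ± 0.93 (edgeR adjusted p = 0.052) and -2.36 ± 0.81 (0.070) did not pass. Gpnmb stood at 16.1, 26.3 and 52.7 against 23.1, 4.29 and 3.89 and overlapped. When a shared barcode was instead kept in the library whose UMIs exceeded those of any other by 5 times or more, Lpl was the 1 gene called, at -2.40 ± 0.69.

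Alveolar macrophages, which clear surfactant lipid, held the largest class share of the Spp1 and Lpl UMIs of healthy lung in both sets of cells. In healthy lung with shared barcodes left out, alveolar macrophage-like cells held 83.3% of the UMIs of Spp1, 86.9% of those of Lpl, 71.0% of those of Lgals3, 64.7% of those of Fabp5 and 41.6% of those of Cd36. Endothelial-like cells, a cluster also led by the epithelial genes Scgb1a1 and Sftpc, held another 40.4% of Cd36. With all cells, the set in which the 4 genes were called, alveolar macrophage-like cells held 39.9% of the healthy lung UMIs of Spp1, 23.4% of those of Gpnmb, 52.7% of those of Lpl and 21.7% of those of Cd36. The Mmp12-led cluster held 35.0%, 56.3%, 26.0% and 30.1% of them. Without shared barcodes, alveolar cells were 23.7% ± 13.1 of cells in healthy lungs and 4.33% ± 4.53 in tumour-bearing lungs, while the summed level of 9 alveolar markers was 1158 to 4021 CPM against 271 to 774. The summed level of 10 neutrophil markers was 1352 to 7751 in healthy and 59053 to 201976 in tumour-bearing lung. In tumour-bearing lung, neutrophil-like cells held 69.1% of the UMIs of Fabp5 and 54.4% of those of Cd63. Within alveolar macrophage-like cells, 0 of 8 genes tested were called between tumour-bearing and healthy lung (edgeR; 0.14% of all genes called, and 1 gene at an unadjusted p under 0.05, Spp1 at -0.95 ± 0.43). Lpl differed there by -0.02 ± 0.28 with all cells and -0.03 ± 0.25 with shared barcodes left out, from 18 to 162 cells per library. The part of cell shares in the lung differences was not tested.

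In the scaffold none of the 9 genes was called between tumour-bearing and healthy mice. The log2 differences ran from -0.29 ± 0.47 for Cd63 to 0.19 ± 0.43 for Apoe (edgeR, 0 of 9 at an unadjusted p under 0.05; 0.161% of all genes called). Without shared barcodes they ran from -0.41 ± 0.39 for Cd63 to 0.27 ± 0.48 for Apoe (0 of 9 unadjusted; 0.327% called), and the status groups overlapped for 9 of 9 genes in both sets of cells. Within the Mmp12-led cluster 0 of 9 were called (0 unadjusted; 0.0428% of all genes), with Lpl at 0.01 ± 0.21 and Gpnmb at 0.18 ± 0.21. Within the macrophage-like cluster 0 of 9 were called (0 unadjusted; 0.0299%), with Trem2 at -0.33 ± 0.21 and Apoe at 0.26 ± 0.26. In the whole scaffold the SEs were 0.38 to 0.51 with all cells, which sets the size of difference that could be seen.

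In the spleen Cd63 and Lgals3 were higher in tumour-bearing mice once shared barcodes were left out, and no gene was called with all cells. With all cells 0 of 9 were called (edgeR; 3 at an unadjusted p under 0.05; 2.79% of all genes called higher), with Cd36 at -1.30 ± 0.41 and Cd63 at 0.78 ± 0.52. Without shared barcodes Cd63 stood at 2.47, 19.0 and 0 CPM in healthy and 31.3, 253 and 303 in tumour-bearing spleen, and Lgals3 at 37.1, 62.3 and 303 against 145, 516 and 622. Tumour-bearing libraries were the higher ones on 3 of 3 days for both genes, and the groups did not overlap for Cd63. The share of all genes with such a pattern is not given. The log2 differences were 4.19 ± 0.60 for Cd63 (edgeR adjusted p = 0.00014) and 2.74 ± 0.48 for Lgals3 (0.0012), 2 of 9 against 5.43% of all genes. The 3 healthy libraries together held 23 UMIs of Cd63 in this set, so the size of its difference is uncertain. The healthy library of day 21 had 26 cells. Without the libraries of that day Cd63 was 4.04 ± 0.53 and Lgals3 2.84 ± 0.45 higher, and Fabp5 was called too, at 1.87 ± 0.49. The healthy libraries of days 7 and 14 held 3 and 8 UMIs of Fabp5, so the size of its difference is uncertain.

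Granulocyte precursors carried these 2 genes in the tumour-bearing spleen. Neutrophil progenitor-like cells held 79.5% of the UMIs of Cd63 and 53.5% of those of Lgals3 there, and neutrophil-like and progenitor-like cells together most of those of Fabp5, at 33.4% and 44.7%. Progenitor-like cells were 25.7% ± 20.7 of tumour-bearing spleen cells, and the summed level of 9 progenitor markers was 3478 to 40909 CPM, against 34.6 to 2269 in healthy spleen. Of cells thinned to 400 UMIs, 9.86% of spleen progenitor-like cells had Cd63 and 23.9% had Lgals3, but none had Gpnmb, Trem2 or Cd36. Apoe lay mostly in monocyte-like cells, at 49.5%, and Lpl in a small erythroid-like cluster that also expressed Spic and Vcam1, genes of red pulp macrophages, at 52.1%. With shared barcodes left out, the tumour-bearing spleen held 74 UMIs of Lpl in all. The part of cell shares in the spleen difference was not tested.

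The tumour effect itself differed between tissues for Cd63 and Lgals3 when shared barcodes were left out. With all cells 0 of 9 differences were called for scaffold minus lung (edgeR; 4 at an unadjusted p under 0.05; 0% of all genes called), 0 of 9 for scaffold minus spleen (2 unadjusted; 0%) and 0 of 9 for lung minus spleen (1 unadjusted; 0.0179%). With shared barcodes left out, Cd63 had a tumour effect lower by 4.60 ± 0.72 (log2) in scaffold than in spleen (edgeR adjusted p = 0.0038) and Lgals3 one lower by 2.89 ± 0.62 (0.036), 2 of 9 against 0.645% of all genes. Cd63 was also called for lung minus spleen, at -4.43 ± 0.73 (edgeR adjusted p = 0.021; 1 of 9 against 0.0893% of all genes). Both values for Cd63 rest on 23 UMIs in the healthy spleen, so their size is uncertain. For scaffold minus lung 0 of 9 were called (2 unadjusted; 0.0198% of all genes), so the tumour effect on the lung genes is not shown to differ from that in the scaffold.

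Across days, both statuses together, 0 of 9 genes changed in the lung (edgeR; 1 at an unadjusted p under 0.05; 2.74% of all genes) and 0 of 9 in the scaffold (0 unadjusted; 0.439%), where the log2 change per 7 days ran from -0.44 ± 0.34 for Fabp5 to 0.39 ± 0.42 for Apoe. In the spleen Cd63, at 1.45 ± 0.36 per 7 days, and Lgals3, at 1.16 ± 0.33, were called higher with day, 2 of 9 against 6.48% of all genes. Neither was called with shared barcodes left out, at 1.88 ± 0.49 (edgeR adjusted p = 0.062) and 1.29 ± 0.33 (0.057). With all cells and day 21 left out, Lgals3 had a change of -0.10 per 7 days. With shared barcodes and day 21 both left out its change was 1.73 ± 0.44 (edgeR adjusted p = 0.081). Cd63 was then called, at 3.41 ± 0.52 (edgeR adjusted p = 0.0048).

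Other genes of the pathway were read from 6 lists, with all cells. Lysosomal genes went with the signature: 17 of 20 were higher and none lower in tumour-bearing scaffold than in spleen, with a list median of 2.36 against -0.09 over all genes, where 10.1% of all genes were called higher. In healthy scaffold against lung 14 of 20 were higher (median 1.64 against -0.10; 2.75% of all genes). The largest against the spleen were Ctsl, a cathepsin, at 4.38 ± 0.77, Ctsk, an elastin- and collagen-cleaving cathepsin, at 4.37 ± 0.72, Atp6v0d2, a subunit of the proton pump, at 4.22 ± 0.80 and Lgmn, asparaginyl endopeptidase, at 3.79 ± 0.47. Of other genes named for this macrophage state, 13 of 14 were higher and 1 lower in tumour-bearing scaffold than in spleen (median 2.25, against the same 10.1% of all genes). Mmp12 was 4.54 ± 1.01 and Igf1, a growth factor made by macrophages, 3.96 ± 0.57 higher. The lower gene was Cst7, an inhibitor of cathepsins, which was itself 1.76 ± 0.40 higher in tumour-bearing than in healthy spleen. Of 19 genes of lipid uptake, storage and efflux 10 were higher in that comparison (median 1.68; 10.1% of all genes), led by the cholesterol exporter Abca1 at 4.36 ± 0.50 and the phospholipid transfer protein Pltp at 4.22 ± 0.54. In tumour-bearing scaffold against lung 5 of these 19 were higher, against 6.77% of all genes, and 2 lower.

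Receptors, signalling partners and regulators followed. Of 7 genes for osteopontin receptors, 4 were higher in tumour-bearing scaffold than in spleen (10.1% of all genes), namely Itga9 (which was also 3.19 ± 0.80 higher than in lung), Itgb5 at 2.76 ± 0.48, Itgav at 2.16 ± 0.45 and Cd44 at 1.23 ± 0.37. Of the 4 MiT/TFE factors, Mitf was 3.54 ± 0.37 and Tfe3 1.12 ± 0.26 higher. Of 6 TREM2 signalling partners 0 were called in that comparison and 1, Tyrobp at 1.72 ± 0.38, in healthy scaffold against spleen, and in tumour-bearing scaffold against lung Hcst, at -1.35 ± 0.40, and Plcg2, at -1.27 ± 0.39, were lower. Most of these partners are used by many myeloid cells. In tumour-bearing against healthy lung Syk was 1.37 ± 0.33 and Vav3 1.26 ± 0.32 higher, while Ctsk fell by 1.61 ± 0.41 and Axl, a receptor for dying cells, fell by 1.61 ± 0.40. Dgat2, which makes triglyceride for lipid droplets, was 4.92 ± 0.67 higher in tumour-bearing lung and 3.92 ± 0.68 higher in tumour-bearing spleen. In tumour-bearing against healthy scaffold 0 genes of the 6 lists were called.

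The genes whose levels followed each member most closely over the 18 libraries were drawn from 11149 others, by Pearson correlation of log2 CPM. They were Ctsk for Spp1 (r = 0.986), Pf4 for Apoe (0.972), Grn for Lgals3 (0.964), Ctsl for Trem2 (0.986), Itgax for Cd36 (0.977), Slc6a8 for Gpnmb (0.980), Anxa4 for Lpl (0.988), C3ar1 for Fabp5 (0.982) and Dtnbp1 for Cd63 (0.962). The complement genes C1qc (0.970) and C1qa (0.968) came next for Apoe, whereas Itgax (0.983) and Pld3 (0.982) came next for Lpl. The 18 libraries fall into 3 tissues and share barcodes, so these values carry no p-value and say nothing of shared function.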

How the data were processed

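Drop-seq UMI counts per gene and cell barcode were used as the authors deposited them, in 18 tables of whole numbers, 1 per library. Genome build mm10 and Seurat version 2 are named in the submitters' processing notes, without their roles, and about 1000 bead-captured cells per library were amplified, per the labels' protocols. The aligner, the annotation and the cell calling are not stated in the material at hand.

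Barcodes with 200 or more genes and at most 20% mitochondrial UMIs were kept (24536 of 26397). No doublet caller was run. Cells were clustered without the 9 genes (scanpy 1.11.5: 2000 variable genes, 30 principal components, 15 neighbours, Leiden resolution 1, 26 clusters) and named from fixed marker lists. Counts of kept cells were summed per library and tested with edgeR 4.0.16 (R 4.3.3), quasi-likelihood, TMM scaling, a low-count filter and Benjamini-Hochberg adjustment over all genes, with day as a block. Replicate numbers stand for days 7, 14 and 21. Libraries of the same day deviated together in 9 of 9 pairs of a healthy and a tumour-bearing library of a tissue (r of deviations from group means, 0.201 to 0.619). These values used all cells, so barcodes shared by libraries of a day enter them. They cannot alone show that the numbers pair the libraries. Depth ran from 292092 to 4291208 UMIs per library, which sets the counting error.

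The edgeR fits were tested on simulated data. The members and the gene lists were chosen with earlier results of these data known. Named genes of a list are those past the threshold with the largest changes, at most 4 per list and comparison. Alternatives covered scaling, the low-count filter, DESeq2 1.42.0, the block, thinning, clustering, cell filters, shared barcodes and leaving out each day. Assigning shared barcodes to 1 library, and the tests within the Mmp12-led cluster (20 or more cells per library) and alveolar macrophage-like cells (15 or more), were chosen after seeing the data.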

Additional observations from a re-analysis of the deposited data

Results flagged for a closer look

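With shared barcodes left out, the effect of the tumour differed between tissues by a test of the difference itself for Cd63 and Lgals3. For Cd63 the log2 difference of effects was -4.60 ± 0.72 for scaffold minus spleen (edgeR adjusted p = 0.0038) and -4.43 ± 0.73 for lung minus spleen (0.021). For Lgals3 it was -2.89 ± 0.62 for scaffold minus spleen (edgeR adjusted p = 0.036). Tumour-bearing spleen was the higher one on 3 of 3 days for both genes. The healthy spleen held 23 UMIs of Cd63 in this set, so the size of its differences is uncertain. The healthy spleen library of day 21 kept 26 cells in this set, and the summed level of neutrophil progenitor markers moved with the spleen values; its part in the result was not tested. With all cells none of these differences was called.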

How the results depend on the processing

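The number of the 9 genes called moved with the shared barcodes. Shares of all genes called are not given for most of the alternatives below, so these counts alone do not set the 9 genes apart. In lung, tumour-bearing against healthy, 4 became 1 with shared barcodes left out or assigned to 1 library, and 0 with day 21 left out as well, with at least 400 genes per cell, or with no replicate block; leaving out a day gave 0 to 1. In spleen 0 became 2 with shared barcodes left out, with them assigned, or by DESeq2, and 3 without the low-count filter or with day 21 left out as well. Differences of the tumour effect went from 0 to 1 for lung minus spleen under each of the 3 treatments of shared barcodes, and for scaffold minus spleen to 1 (assigned), 2 (left out) and 2 (day 21 out as well). Lung against spleen went from 0 to 5, 5 and 6 in healthy mice (0 to 1 leaving out a day) and to 3, 3 and 4 in tumour-bearing mice, where no filter gave 1. With no replicate block, the calls for scaffold against lung were 0 (healthy) and 5 (tumour-bearing), and 1 for healthy scaffold against spleen; leaving out a day gave 0 to 9 in each of these 3 comparisons. Change with day in lung was 3 without the filter (0 to 1 leaving out a day), and in spleen 1 by library totals, 7 without the filter, 1 (assigned), 0 (left out) and 1 (day 21 out as well), with 1 to 5 leaving out a day.

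Among single genes, Fabp5 in spleen went from -0.40 to 1.87 (shared barcodes and day 21 out), and Gpnmb in tumour-bearing lung against spleen from -0.34 to 3.11 (left out), 3.29 (assigned) and 3.88 (day 21 out as well). With all cells, leaving out a day moved the change per 7 days in spleen from -0.10 to 2.25 for Lgals3 and from -3.05 to 3.86 for Spp1. The cause was not tested. Of single-gene values under the alternatives, 663 kept their side of the threshold, 90 gained a call, 105 lost one and 6 reversed. The reversals do not cover values without a call. In a count over 1620 single-gene values, 1079 were called in neither the main nor the alternative fit, and 171 of these changed sign.

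The share of cells with 3 or more genes depended on depth: without thinning it was 19.0% and 8.77% in healthy and tumour-bearing lung, 58.5% and 55.8% in scaffold and 7.94% in tumour-bearing spleen, and thinned to 800 UMIs 65.7% and 54.2% in scaffold. With shared barcodes left out it was 0.985% in tumour-bearing lung and 0.196% in tumour-bearing spleen. The ratio of Mmp12-led to macrophage-like level moved to 2.47 for Gpnmb, 0.816 for Trem2 and 1.202 for Cd63 with shared barcodes left out, and to 2.496 for Cd36 at Leiden resolution 1.5. Each day is 1 library per tissue and status, so day and library cannot be told apart.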
